A study of Mus musculus with 6 samples.

Results

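The transcription factors GATA1, GATA2 and TAL1, the bridging proteins LMO2 and LDB1, and the factors and cofactors that work beside them were followed through the mRNA of 10 genes, *Gata1*, *Gata2*, *Tal1*, *Lyl1*, *Nfe2*, *Gfi1b*, *Lmo2*, *Ldb1*, *Cbfa2t3* and *Zfpm1*. They were chosen by name as factors and cofactors of erythroid and megakaryocytic gene regulation, including those shared with stem cells, and all 10 were found among the 39179 mouse genes listed. Stranded mRNA libraries were made from the bone marrow of 6 littermates, with 3 mice in each of the *MxCDX2* and control groups. The *MxCDX2* mice were *RsCDX2::Mx1Cre*: a human *CDX2* coding sequence behind a floxed stop had been placed at *Rosa26*, and a Cre transgene driven by the interferon-inducible *Mx1* promoter removed the stop. The control group held a single mouse of each of 3 genotypes, namely *RsCDX2* without Cre (control 1), *Mx1Cre* without the knockin (control 2) and wild type (control 3). All 6 mice had received pI:pC, a double-stranded RNA that triggers an interferon response, as 3 intraperitoneal injections of 10 µg per g of body weight at an age of 3 months, and the marrow was taken 6 weeks later. Injections were daily by the sample labels and spaced by 2 days by the methods of the study. The *Mx1* promoter is active in many cell types exposed to interferon, so it is not specific to 1 blood lineage.

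In erythroid cells, TAL1 bound to an E protein and GATA1 bound to a GATA sequence are held together by LMO2 and LDB1, and LDB1 can pair with itself to join an enhancer to its promoter. ETO2, the product of *Cbfa2t3*, and the zinc finger repressor GFI1B bring corepressors to these sites, and FOG1, the product of *Zfpm1*, is the obligate partner of GATA1 in red cell and platelet development. Stem and progenitor cells use GATA2 and LYL1 in the same places, and the replacement of GATA2 by GATA1 on DNA accompanies erythroid maturation.

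The *MxCDX2* marrow had much less mRNA of *Gata1*, *Gfi1b*, *Zfpm1* and *Tal1* and more of the ETO2 gene. *Gata1*, *Gfi1b* and *Zfpm1* were 7.24- to 8.77-fold lower than in the control marrow, *Tal1* was 3.43-fold lower, and *Cbfa2t3* was 2.10-fold higher. *Lyl1*, the paralog of *Tal1*, was 1.71-fold higher, whereas *Lmo2*, *Nfe2* and *Ldb1* were at most 1.49-fold lower. A gene was taken as changed when its absolute log2 fold change exceeded 1 and its adjusted p-value was below 0.05 in edgeR's quasi-likelihood test over the 15980 genes with enough counts. By that rule 5 of the 10 genes changed, 4 lower and 1 higher, where 13.6% of all tested genes changed (9.03% lower and 4.59% higher). By the adjusted p-value alone 8 of 10 differed, 6 lower and 2 higher, against 21.7% of all tested genes (11.8% lower and 9.91% higher). In 10 of 10 genes the *MxCDX2* mice did not overlap the control mice, with 8 lower and 2 higher, a pattern found in 42.1% of all tested genes (20.7% lower and 21.4% higher). The median log2 fold change was -0.89 over the 10 genes and 0.00 over all tested genes. Because whole marrow was sequenced, fewer cells of a type and less RNA per cell cannot be told apart.

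**Figure D1:**
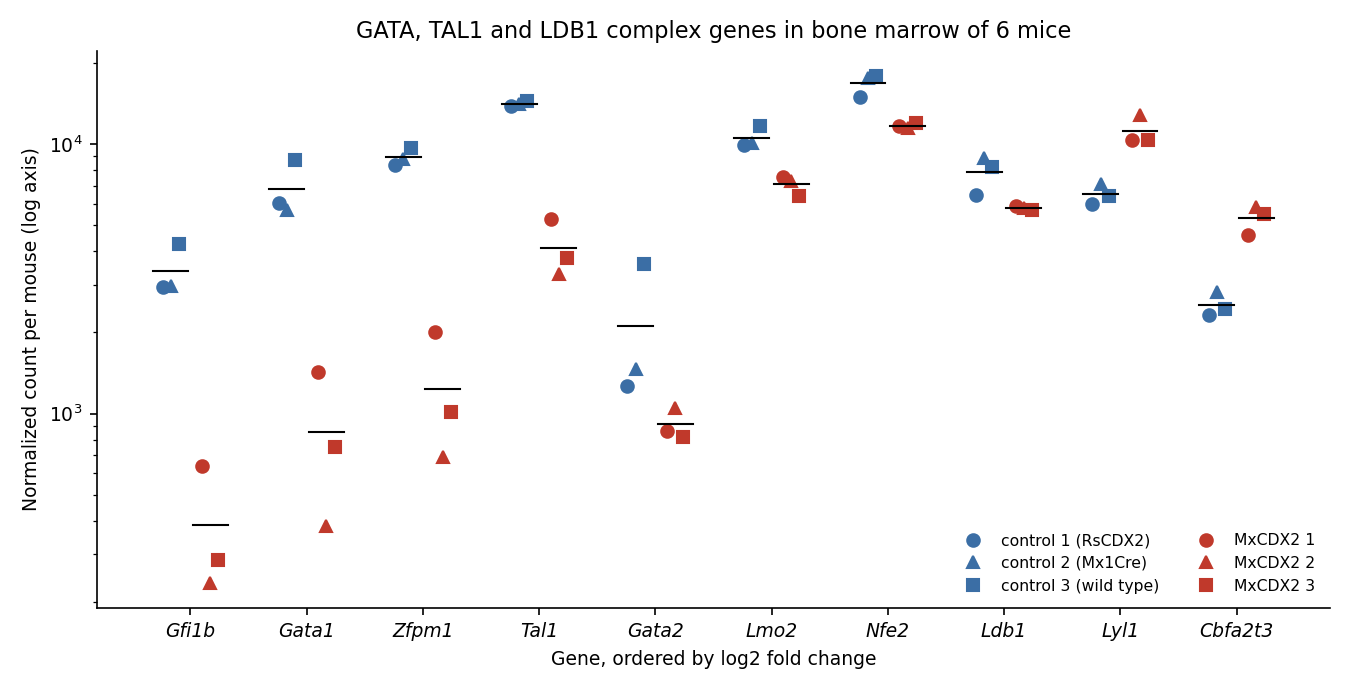
Normalized counts of the 10 genes in each of the 6 mice on a log axis, with the group means as lines and genes ordered by log2 fold change. Red *MxCDX2* points lie apart from blue control points for every gene, with *Gfi1b*, *Gata1* and *Zfpm1* spread most among the *MxCDX2* mice and *Gata2* set apart in the wild-type control, at 3599 against 1269 and 1459.

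The libraries held 38646101 to 49899650 reads on genes. Reads on mouse *Cdx2* numbered 4, 0 and 0 in control mice 1 to 3 and 152, 155 and 183 in *MxCDX2* mice 1 to 3, in the direction the labels give, although the sequence knocked in at *Rosa26* is human and only mouse genes were counted. The wild-type control stood apart from the other controls on the second principal component, which held 15.9% of the variance, and its summed normalized counts of 18 megakaryocyte genes were 526287 against 251146 in the *RsCDX2* control and 88936 in the *Mx1Cre* control. *Thbs1* alone gave 191275 of the *RsCDX2* sum, and the other 17 genes summed to 458364 in the wild-type, 59871 in the *RsCDX2* and 44048 in the *Mx1Cre* control. It also had the highest count of the 6 mice for 7 of the 10 genes followed here.

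The promoters of *Gata1*, *Gfi1b*, *Tal1* and *Cbfa2t3* are shown as examples from genes that changed in both directions. Those of the last 3 genes were picked because they hold a GATA word, and over all 7 windows of the 5 genes that changed 3 hold one, with none in the *Zfpm1* window. Each window, taken from RefSeq on GRCm38.p6, runs from 250 bases before an annotated start to 50 bases after it, 300 bases in all, and is written 5′ to 3′ on the strand of the gene. Capitals mark GATA words on either strand, which begin with AGATA or TGATA and end with another A or with G. No CDX word, which is TTTAT followed by G or by another T, occurred in these 4 windows.
*Gata1* (chrX:7967861-7968160, minus strand): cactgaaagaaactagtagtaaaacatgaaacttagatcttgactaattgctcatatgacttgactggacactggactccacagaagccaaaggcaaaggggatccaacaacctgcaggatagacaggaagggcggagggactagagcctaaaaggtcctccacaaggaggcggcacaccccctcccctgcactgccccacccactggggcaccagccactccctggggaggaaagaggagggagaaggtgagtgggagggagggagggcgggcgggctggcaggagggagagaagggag
*Gfi1b* (chr2:28621933-28622232, minus strand): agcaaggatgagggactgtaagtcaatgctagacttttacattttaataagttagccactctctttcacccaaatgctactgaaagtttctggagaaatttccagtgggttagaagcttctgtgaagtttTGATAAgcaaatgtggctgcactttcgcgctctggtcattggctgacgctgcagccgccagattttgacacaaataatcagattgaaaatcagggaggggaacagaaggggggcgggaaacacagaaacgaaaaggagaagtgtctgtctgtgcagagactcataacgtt
*Tal1* (chr4:115056176-115056475, plus strand): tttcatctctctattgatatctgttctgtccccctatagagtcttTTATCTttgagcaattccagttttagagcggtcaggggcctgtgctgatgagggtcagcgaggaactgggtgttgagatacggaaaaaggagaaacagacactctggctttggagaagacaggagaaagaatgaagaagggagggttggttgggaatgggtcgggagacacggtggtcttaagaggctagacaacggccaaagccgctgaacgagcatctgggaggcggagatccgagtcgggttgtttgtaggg
*Cbfa2t3* (chr8:122699060-122699359, minus strand): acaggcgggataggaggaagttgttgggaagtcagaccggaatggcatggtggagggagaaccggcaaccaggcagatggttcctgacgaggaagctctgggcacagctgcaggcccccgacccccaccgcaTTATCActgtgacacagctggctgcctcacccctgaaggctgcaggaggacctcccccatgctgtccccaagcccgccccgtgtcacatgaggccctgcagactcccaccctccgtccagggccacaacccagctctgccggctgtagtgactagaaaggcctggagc
The *Gfi1b* window held TGATAA 120 bases upstream of the start. The *Tal1* window held AGATAA on the reverse strand 205 bases upstream, and a composite element, CTGGGTGTTGAGATA, in which CTG and GATA are separated by 8 bases, 140 bases upstream. In the *Cbfa2t3* window TGATAA stood on the reverse strand 118 bases upstream. The *Gata1* window had no GATA word, and held 3 matches to the KLF word CCNCNCCC, at 71, 55 and 34 bases upstream.

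The promoter table held 13 windows for 8 of the 10 genes, and *Nfe2* and *Lmo2* were without an entry. A GATA word lay in 4 of the 13 windows, compared with 29.8% of all 32851 windows in the table, and the windows were those of *Gfi1b*, 1 of *Tal1*, 1 of *Ldb1* and 1 of *Cbfa2t3*. A CDX word lay in 2 of the 13, compared with 27.6% of all windows: TTTATT was found 176 bases upstream of the other *Tal1* start, and on the reverse strand 202 bases upstream of a *Gata2* start. The composite of CTG, 7 or 8 bases and GATA was present in 1 of 13 (4.82% of all windows), an E-box (CANNTG) in 8 of 13 (72.3%) and the KLF word in 12 of 13 (49.5%). The composite can share its GATA letters with a GATA word, and both strands were searched for every word. Windows of 1 gene with several starts belong to the same locus and are not independent, and a match is a stretch of letters and was not shown to be a bound site.

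Among the DNA-binding members, *Gata1* (ENSMUSG00000031162, chrX:7959260-7978071, minus strand, GRCm38), the master regulator of erythroid and megakaryocytic genes, fell most together with *Gfi1b*. Normalized counts, scaled to the mean library of the 6 mice, were 6061, 5676 and 8759.5 for *Gata1* in control mice 1 to 3, and 1421, 382 and 750.4 in *MxCDX2* mice 1 to 3. The highest *MxCDX2* mouse, mouse 1, remained well below the lowest control. The means were 6832 ± 1680 and 851 ± 527 (SD, n = 3 each), and the log2 fold change was -3.01 with a standard error of 0.48 (edgeR adjusted p = 0.00749).

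*Gfi1b* (ENSMUSG00000026815, chr2:28609450-28621982, minus strand) encodes a zinc finger repressor needed for red cells and platelets that recruits the demethylase LSD1. Its normalized counts were 2939, 2966 and 4255 in control mice 1 to 3 and 638, 236 and 286 in *MxCDX2* mice 1 to 3. All 3 *MxCDX2* mice were below every control, and *Gfi1b* fell by 3.13 ± 0.41 (SE) on the log2 scale (edgeR adjusted p = 0.00412).

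*Tal1* (ENSMUSG00000028717, chr4:115056426-115071755, plus strand), the basic helix-loop-helix factor required to form blood, had normalized counts of 13787, 14077 and 14447 in control mice 1 to 3. In *MxCDX2* mice 1 to 3 they were 5269, 3281 and 3782. The control values lay within a narrow band, with an SD of 331 around a mean of 14104, and the *MxCDX2* values were far below it. *Tal1* fell by 1.78 ± 0.18 (SE) on the log2 scale (edgeR adjusted p = 0.00228).

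*Lyl1* (ENSMUSG00000034041, chr8:84701457-84704715, plus strand), the closest relative of *Tal1*, which sustains adult stem and progenitor cells, went the other way. Its normalized counts were 5968, 7125 and 6440.2 in control mice 1 to 3 and 10309, 12854 and 10329 in *MxCDX2* mice 1 to 3. Every *MxCDX2* mouse exceeded every control. The log2 fold change was 0.78 ± 0.13 (SE; edgeR adjusted p = 0.00905), which passes the p-value threshold and not the fold threshold.

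*Gata2* (ENSMUSG00000015053, chr6:88193891-88207032, plus strand), the GATA factor of stem cells, progenitors and mast cells, was lower in every *MxCDX2* mouse but did not pass the test. Normalized counts were 1269, 1459 and 3599 in control mice 1 to 3, and 859, 1052 and 821 in *MxCDX2* mice 1 to 3. The wild-type control held 2.64 times the mean of the other controls, the largest such excess among the 10 genes. With all mice the log2 fold change was -1.21 ± 0.40 (SE; edgeR adjusted p = 0.0766), and without the wild-type control it was -0.56 (adjusted p = 0.0538). DESeq2, the tool named in the methods of the study, gave -1.20 with an adjusted p of 0.0179, past both thresholds.

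*Nfe2* (ENSMUSG00000058794, chr15:103248212-103258403, minus strand) encodes the large subunit of a factor that pairs with small MAF proteins at globin and platelet genes. Its normalized counts were 14924, 17654 and 17872 in control mice 1 to 3, against 11642, 11492 and 11953 in *MxCDX2* mice 1 to 3. The 3 *MxCDX2* mice were close to each other, with an SD of 235. The log2 fold change was -0.52 ± 0.11 (SE; edgeR adjusted p = 0.0206), and with each mouse removed in turn the p-value threshold was passed in 2 of 6 fits.

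The bridging members moved little. *Lmo2* (ENSMUSG00000032698, chr2:103957986-103981878, plus strand), a LIM domain protein that binds no DNA and links TAL1 to LDB1, had normalized counts of 9929, 10111 and 11640.4 in control mice 1 to 3 and 7531, 7292 and 6432 in *MxCDX2* mice 1 to 3. The groups were apart by a gap larger than the range within either group, and the log2 fold change was -0.58 ± 0.11 (SE; edgeR adjusted p = 0.0157, below 0.05 in 4 of 6 fits with a mouse removed). *Ldb1* (ENSMUSG00000025223, chr19:46031570-46045214, minus strand), the self-pairing adaptor, had counts of 6448, 8851 and 8235 in control mice 1 to 3, and 5893, 5766 and 5692 in *MxCDX2* mice 1 to 3. The lowest control, control 1, was close to the *MxCDX2* mice, and *Ldb1* did not pass the test (log2 fold change -0.44 ± 0.13 SE, edgeR adjusted p = 0.0586). Without control 1 its log2 fold change was -0.55 (adjusted p = 0.0282).

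The corepressor and cofactor genes moved in opposite directions. *Cbfa2t3* (ENSMUSG00000006362, chr8:122625141-122699109, minus strand), which encodes the corepressor ETO2, had normalized counts of 2323, 2828 and 2445 in control mice 1 to 3, and 4602, 5851 and 5498 in *MxCDX2* mice 1 to 3. Every *MxCDX2* mouse was above every control. *Cbfa2t3* rose by 1.07 ± 0.13 (SE) on the log2 scale (edgeR adjusted p = 0.00344), just past the fold threshold, and edgeR's glmTreat, which asks whether the change exceeds that threshold, did not pass (adjusted p = 0.761).

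*Zfpm1* (ENSMUSG00000049577, chr8:122282141-122337251, plus strand), which encodes FOG1, was lower to a similar degree as its partner gene *Gata1*. Its normalized counts were 8384, 8798 and 9691 in control mice 1 to 3, and 2011, 689.7 and 1011 in *MxCDX2* mice 1 to 3. The controls were within a narrow range and far above the *MxCDX2* mice. *Zfpm1* fell by 2.86 ± 0.39 (SE) on the log2 scale (edgeR adjusted p = 0.00451).

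The 5 genes that changed were the same 5 whichever of the 6 mice was removed. Their log2 fold changes ranged in those fits from -3.69 to -2.87 for *Gfi1b*, from -3.59 to -2.65 for *Gata1*, from -3.39 to -2.56 for *Zfpm1*, from -1.995 to -1.63 for *Tal1* and from 1.00 to 1.17 for *Cbfa2t3*. In each of the 4 that fell, *MxCDX2* mouse 1 had the highest count of its group and mouse 2 the lowest. Exons of *Lyl1*, *Ldb1* and *Cbfa2t3* overlap exons of *Nfix*, *Pprc1* and the antisense gene *Gm10612* on the opposite strand, and the strand setting of the counting is not given in the sources used here. *Gm10612* had at most 248 counts in any mouse, far fewer than *Cbfa2t3*, and was itself higher in *MxCDX2* marrow (log2 fold change 2.56, edgeR adjusted p = 0.00343). *Nfix* and *Pprc1* were not called (log2 fold changes of -0.04 and -0.13).

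**Figure D2:**
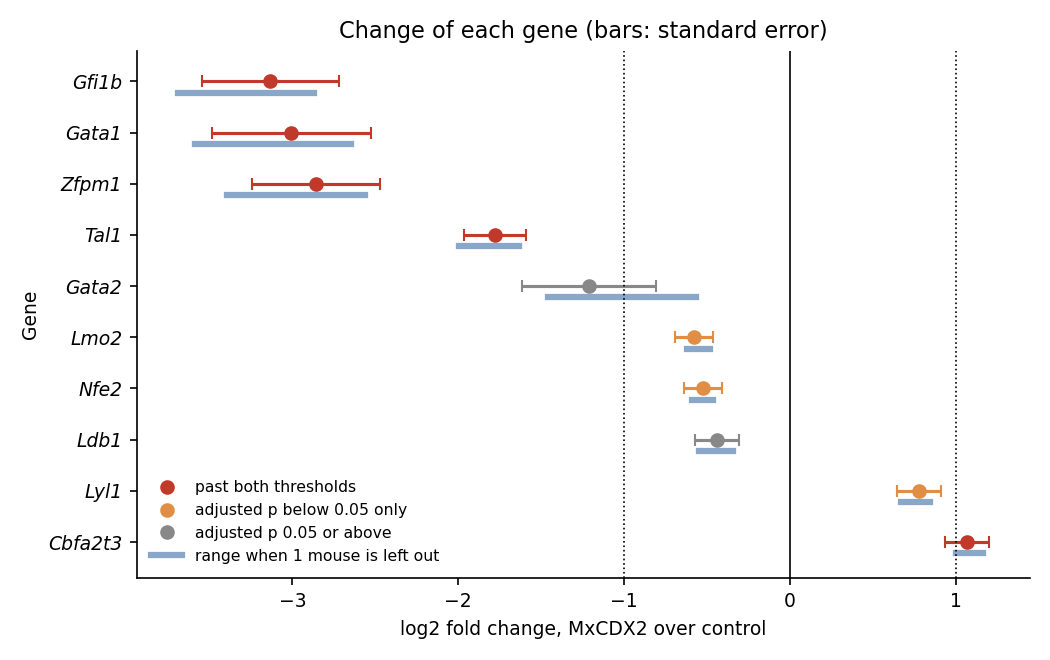
Log2 fold change of each gene, *MxCDX2* over control, with standard errors, and below each point the range over fits with each mouse removed in turn. Dotted lines mark the fold threshold. *Gfi1b*, *Gata1*, *Zfpm1* and *Tal1* lie beyond it on the left, *Cbfa2t3* sits on the right line at 1.07, and the bar of *Gata2* runs from -1.46 to -0.56.

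Levels between genes were compared as normalized counts per kilobase of exon per 1000000 reads. In control marrow the order of these levels was *Nfe2* (124 ± 12.1, SD, n = 3), *Lmo2* (107 ± 9.54), *Lyl1* (79.5 ± 7.11), *Tal1* (70.8 ± 1.66), *Gata1* (61.6 ± 15.2), *Zfpm1* (56.2 ± 4.19), *Gfi1b* (40.7 ± 9.04), *Ldb1* (37.5 ± 5.96), *Gata2* (8.59 ± 5.27) and *Cbfa2t3* (6.65 ± 0.692). Neighbours whose control ranges overlapped were *Nfe2* and *Lmo2*, *Tal1* and *Gata1*, *Gata1* and *Zfpm1*, *Gfi1b* and *Ldb1*, and *Gata2* and *Cbfa2t3*. Thus the stem cell GATA gene and the ETO2 gene were the scarcest of the set in control marrow.

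In *MxCDX2* marrow the order of levels per length became *Lyl1* (136 ± 17.9), *Nfe2* (86.1 ± 1.73), *Lmo2* (71.9 ± 5.87), *Ldb1* (27.6 ± 0.485), *Tal1* (20.6 ± 5.19), *Cbfa2t3* (14.0 ± 1.69), *Zfpm1* (7.77 ± 4.33), *Gata1* (7.68 ± 4.75), *Gfi1b* (4.65 ± 2.63) and *Gata2* (3.71 ± 0.505). From *Lyl1* down to *Cbfa2t3* no neighbours overlapped, and from *Cbfa2t3* down each gene overlapped the next. *Lyl1* moved from rank 3 to rank 1 and *Cbfa2t3* from rank 10 to rank 6, while *Gata1* moved from rank 5 to rank 8.

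**Figure D3:**
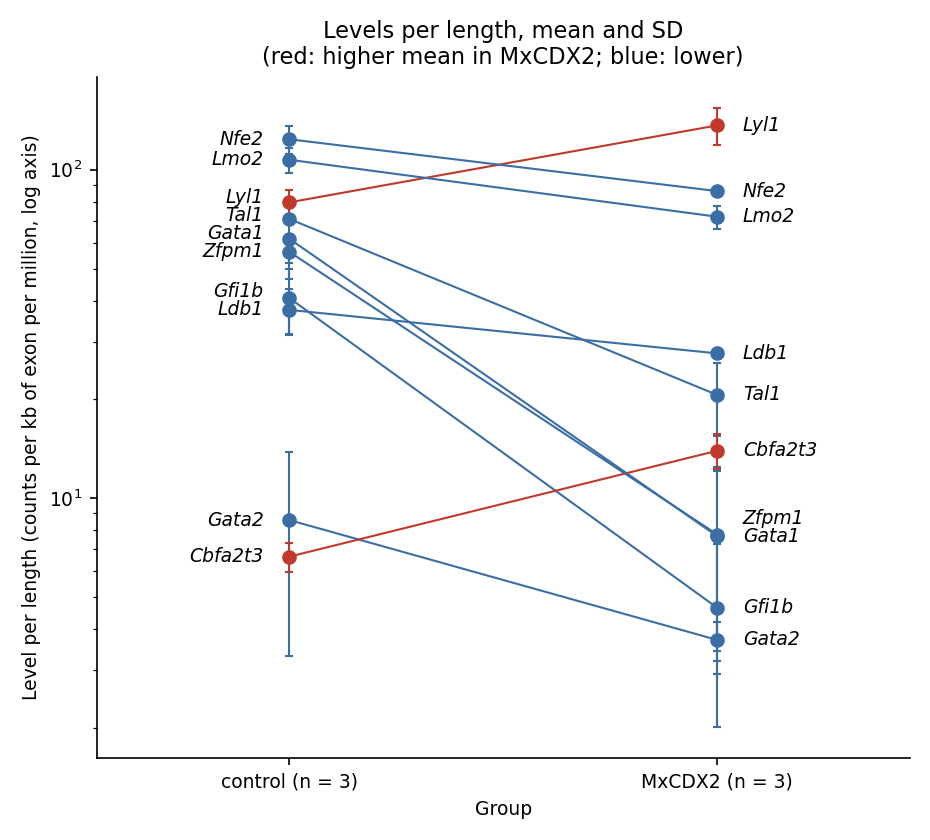
Level per length (normalized counts per kilobase of exon per 1000000 reads, log axis) of the 10 genes in control and *MxCDX2* marrow, as means with SD bars over 3 mice. The lines of *Lyl1* (79.5 to 136) and *Cbfa2t3* (6.65 to 14.0) climb across falling lines such as that of *Gata1* (61.6 to 7.68).

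Within the paralog pairs the balance shifted. *Lyl1* made up 51.3%, 55.2% and 52.0% of the summed *Lyl1* and *Tal1* levels per length in control mice 1 to 3, and 82.6%, 90.5% and 86.9% in *MxCDX2* mice 1 to 3. The sum itself was 150 ± 7.83 in control and 157 ± 14.7 in *MxCDX2* marrow (SD, n = 3 each), with overlapping ranges. *Gata2* made up 8.64%, 10.4% and 15.7% of the summed *Gata2* and *Gata1* levels in control mice 1 to 3, and 21.5%, 55.4% and 33.1% in *MxCDX2* mice 1 to 3. Here the sum was 70.2 ± 20.4 in control and 11.4 ± 4.43 in *MxCDX2* marrow, and its ranges were apart. Per length, the summed level was close between the groups for the pair of helix-loop-helix genes and far lower for the pair of GATA genes. The closeness of the first sum depends on the exon lengths used, 1800 bases for *Lyl1* and 4379 for *Tal1*. In normalized counts not scaled for length, *Tal1* lost more (means of 14104 in control and 4111 in *MxCDX2* marrow) than *Lyl1* gained (6511 and 11164).

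Ratios of raw counts within a mouse do not depend on library scaling, and 6 were tested with a two-sided exact permutation test, whose smallest possible p for 3 mice against 3 is 0.1 and thus cannot pass 0.05. The ratio of *Tal1* to *Lyl1* was 2.31, 1.98 and 2.24 in control mice 1 to 3 and 0.511, 0.255 and 0.366 in *MxCDX2* mice 1 to 3, a log2 difference of -2.58 (exact p = 0.1, adjusted over the 6 ratios 0.15). *Tal1* reads outnumbered *Lyl1* reads in every control and were fewer in every *MxCDX2* mouse. These reads were not scaled for exon length, which was 4379 bases for *Tal1* and 1800 for *Lyl1*. Per length *Lyl1* was already above *Tal1* in every control, with means of 79.5 and 70.8.

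The ratio of *Gata1* to *Gata2* was 4.78, 3.89 and 2.43 in the control mice and 1.65, 0.363 and 0.914 in the *MxCDX2* mice, a log2 difference of -2.12 (exact p = 0.1, adjusted 0.15). The groups did not overlap, and in *MxCDX2* mice 2 and 3 *Gata2* had more reads than *Gata1*. These reads were not scaled for exon length, which was 5398 bases for *Gata2* and 2438 for *Gata1*. Per length *Gata2* was above *Gata1* only in *MxCDX2* mouse 2, at 4.29 against 3.45. In *MxCDX2* mouse 3 it was below, at 3.34 against 6.77. For *Gata1* to *Spi1*, which encodes PU.1, the myeloid factor that binds GATA1 and opposes it, the ratio was 0.444, 0.441 and 0.890 in the controls and 0.109, 0.0269 and 0.0580 in the *MxCDX2* mice, a log2 difference of -3.33 (exact p = 0.1, adjusted 0.15). *Spi1* itself was not called (log2 fold change 0.14).

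The ratio of *Gfi1b* to its granulocyte paralog *Gfi1* was 0.938, 1.21 and 5.30 in the controls and 0.222, 0.0608 and 0.0806 in the *MxCDX2* mice, a log2 difference of -4.15 (exact p = 0.1, adjusted 0.15). The wild-type control was far above the other controls in this ratio, and all controls were above the *MxCDX2* mice. *Gfi1* itself had 3135, 2444 and 802 normalized counts in control mice 1 to 3. It overlapped between the groups and was not called (log2 fold change 0.69). Without the wild-type control the log2 difference of the ratio was -3.38. The ratio of *Zfpm1* to *Gata1* stayed within overlapping ranges, at 1.38, 1.55 and 1.11 in the controls and 1.42, 1.81 and 1.35 in the *MxCDX2* mice (log2 difference 0.18, exact p = 0.5). The ratio of *Lmo2* to *Ldb1* also overlapped, at 1.54, 1.14 and 1.41 against 1.28, 1.26 and 1.13 (log2 difference -0.15, exact p = 0.4). With 3 mice a group, these p-values do not show that the overlapping ratios were equal.

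**Figure D4:**
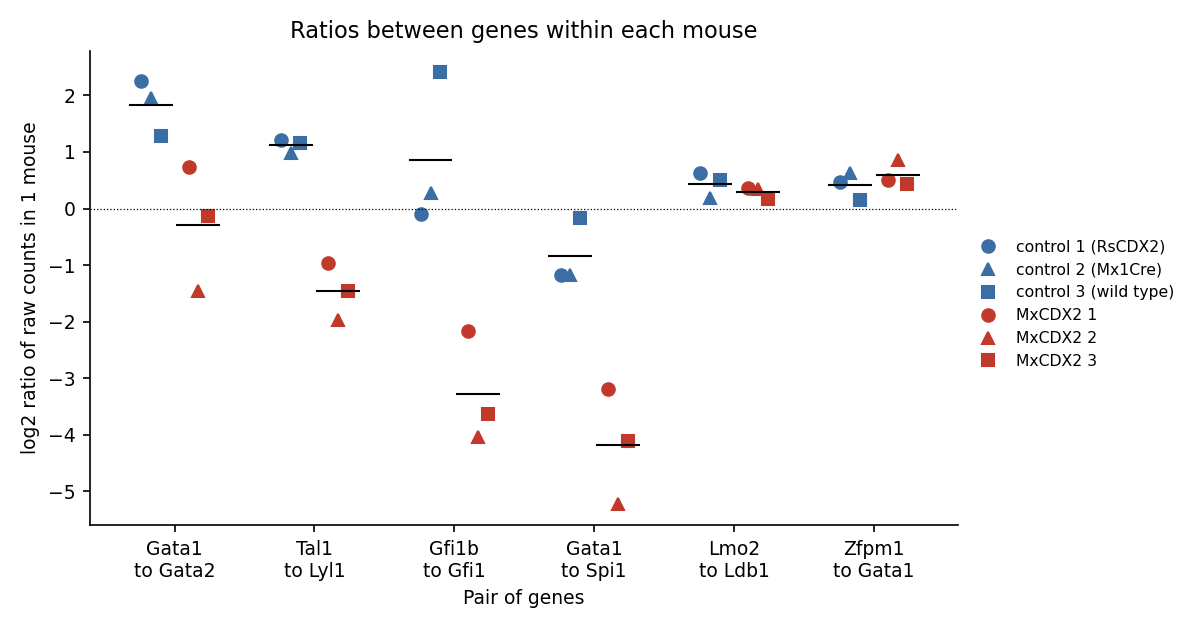
Log2 ratio of the raw counts of the named pair within each mouse, with group means as lines. The *MxCDX2* mice lie below all controls for the first 4 pairs, with mean log2 differences from -4.15 to -2.12, and among the controls for *Lmo2* to *Ldb1* and *Zfpm1* to *Gata1*.

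Beside the members that fell stood the genes of red cells. Of 29 erythroid genes listed, including the erythropoietin receptor, heme enzymes, membrane skeleton and globin genes, 28 were matched and tested and 28 of 28 fell (edgeR, both thresholds), with a median log2 fold change of -3.37. Their summed normalized counts were 2303870 to 2680390 in the control mice and 84379 to 299844 in the *MxCDX2* mice, and no gene of the list was at 0 in all mice. The largest falls were those of *Hba-a1* and *Hba-a2*, with log2 fold changes of -4.24 and -4.22, whose near-identical sequences make the split of reads between them uncertain. *MxCDX2* mouse 1 was the highest of its group for 28 of the 28 genes and mouse 2 the lowest for 27. That was also the order for the 4 members that fell, but it was not particular to red cell genes. Mouse 1 was highest for 10 of 10 B-cell genes and mouse 2 lowest for 10 of 10. For the 9 eosinophil genes these counts were 8 and 8, and for the 10 monocyte genes 2 and 2. The part of red cells in the result was not tested.

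Each member was also expressed relative to the mean log2 normalized count of the 28 erythroid genes in the same mouse. That mean was 14.8 in control and 11.3 in *MxCDX2* marrow, a log2 difference of -3.49 with the groups apart. A gene with constant counts would thus be apart and higher on this scale, with the smallest possible exact permutation p. Being apart and higher here therefore does not by itself show a change of the member. On this relative scale *Gata1* differed by 0.31 (exact permutation p = 0.4) and *Gfi1b* by 0.24 (exact p = 0.5), and both overlapped between the groups. With the globin genes taken out of the reference these became 0.16 and 0.09 (exact p = 0.6 and 0.7). *Zfpm1* differed by 0.49 and *Tal1* by 1.68, with the *MxCDX2* mice apart and higher (exact p = 0.1, the smallest possible, and 0.125 adjusted over the 10 genes, for each). Without the globin genes *Zfpm1* was at 0.34 and no longer apart (exact p = 0.2), and *Tal1* was at 1.53 (exact p = 0.1). The remaining members were likewise apart and higher relative to the erythroid genes, at 2.43 for *Gata2*, 2.91 for *Lmo2*, 2.97 for *Nfe2*, 3.06 for *Ldb1*, 4.26 for *Lyl1* and 4.56 for *Cbfa2t3* (exact p = 0.1 and adjusted 0.125 for each). The means of *Gata1* and *Gfi1b* thus fell nearly as far as the erythroid genes, a likeness that these p-values cannot establish, and *Tal1* fell by less.

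Megakaryocyte genes, many of them bound by the same factors, were lower too. Of 18 tested, 6 fell, with a median log2 fold change of -3.37, led by *Mpig6b* (-5.58), a platelet receptor gene, and *Tubb1* (-4.82), the platelet tubulin. Their sums were 88936 to 526287 in control and 22612 to 46747 in *MxCDX2* mice (44048 to 458364 and 21656 to 27837 without *Thbs1*), and 17 of the 18 were highest in the wild-type control. Without that control 10 fell with a median of -1.40, *Mpig6b* was at -3.55 and *Tubb1* lost its call (-3.14, adjusted p = 0.0658), without control 2 there were 13, and without *MxCDX2* mouse 1, 2 or 3 edgeR called 3, 0 and 0. No gene of the list was at 0 in all mice, and its part in the result was not tested.

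Stem and progenitor genes showed 2 of 15 lower, *Slamf1* (-3.67) and *Meis1* (-2.32), with a median of -0.73. In 9 of the 15 the groups did not overlap, 7 lower and 2 higher, where 42.1% of all tested genes did not overlap. The 2 higher were *Cd34* (0.91) and *Etv6* (0.67), neither past both thresholds. By the rule of both thresholds 2 of 15 changed. That count was near the share of all tested genes, of which 13.6% changed and 9.03% were lower. The sums of the 15 genes overlapped between the groups, at 29331 to 43412 in control and 32102 to 32477 in *MxCDX2* mice. Without the wild-type control *Slamf1* was at -2.02 and *Meis1* at -1.18. Of 9 tested mast cell and basophil genes, a lineage that uses GATA2, 6 fell, led by *Il1rl1* (-2.50) and *Cd200r3* (-2.05), with sums of 24136 to 61572 in control and 4836 to 14441 in *MxCDX2* mice. *Hdc*, which was not called, gave most of the highest sum of each group, and without it the sums were 15071 to 17577 in control and 3017 to 6909 in *MxCDX2* mice. *Cd200r3* lost its call without the wild-type control (adjusted p = 0.0682). The mast cell protease genes *Tpsb2* and *Mcpt4* were too low to be tested and reached 136 and 219 reads in the wild-type control, the mouse with the highest *Gata2*, with at most 3 reads in any other mouse. Endothelial genes, another site of *Gata2* and *Lyl1* expression, showed 2 of 10 lower, where 9.03% of all tested genes were lower by the same rule. The 2 were *Esam* (-2.96) and *Cdh5* (-1.73). Without the wild-type control these were at -1.40 and -1.21, and *Cdh5* lost its call. In the full set 10 of 10 were highest in the wild-type control, with sums of 5958 to 16581 in control and 6614 to 7697 in *MxCDX2* mice. The part of these cell types in the level of *Gata2* was not tested.

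The other lineages moved in their own ways. Of 10 monocyte genes 7 rose, led by *F13a1* (3.06) and *Ccr2* (2.75), and their sum was 62579 to 76233 in control and 303923 to 375328 in *MxCDX2* mice. Of 12 neutrophil genes 6 fell and 1 rose, with *Retnlg* at -2.41 and *Ctsg* at 2.32, and sums of 2000302 to 3235390 in control and 990342 to 1289924 in *MxCDX2* mice. Of 10 B-cell genes 4 fell, among them *Ms4a1* (-2.41), with sums of 20312 to 63382 and 5155 to 18267. Of 9 eosinophil genes 0 were called by edgeR and DESeq2 called 2. In edgeR 2 had an unadjusted p below 0.05, in opposite directions: *Siglecf* (1.10) was higher and *Ccr3* (-2.23) lower. The sums of the 9 genes overlapped, at 39039 to 190970 in control and 11760 to 144651 in *MxCDX2* mice. The defining genes of each lineage were thus present in this tissue, and their part in the levels of *Lyl1* and *Cbfa2t3* was not tested.

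Among 11 tested paralogs of the 10 genes, 2 fell, a share near that of all tested genes (13.6% called). *Runx1t1*, which encodes ETO, a relative of ETO2, had 98.4, 123 and 36.5 normalized counts in control mice 1 to 3 and 6.36, 4.90 and 5.22 in *MxCDX2* mice 1 to 3, a fall by 3.94 ± 0.56 (SE) on the log2 scale (edgeR adjusted p = 0.00518). Thus the corepressor paralogs diverged, with *Runx1t1* lower, *Cbfa2t3* higher and *Cbfa2t2* at 0.06. *Tal2*, at 30.1 to 36.7 counts in control and 4.24 to 12.7 in *MxCDX2* mice, fell by 1.88 (adjusted p = 0.0268), a call kept in 2 of 6 fits with a mouse removed. *Gata4*, *Gata5*, *Gata6*, *Lmo3* and *Zfpm2* had at most 7 reads in any mouse and were not tested.

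Of 16 genes for DNA-binding partners and the single-stranded DNA-binding proteins that stabilize LDB1, 2 fell, again a share near the 13.6% of all tested genes, with a median log2 fold change of 0.04 over the 16. *Klf1*, the erythroid Krüppel-like factor that acts with GATA1 at globin and membrane genes, had 7090, 7398 and 6382 normalized counts in control mice 1 to 3, and 1355, 244 and 387 in *MxCDX2* mice 1 to 3. It fell by 3.40 ± 0.64 (SE; edgeR adjusted p = 0.0129), close to *Gata1*, *Gfi1b* and *Zfpm1*, and its adjusted p was 0.0550 without *MxCDX2* mouse 3. *Tcf3*, which encodes the E proteins that pair with TAL1 and LYL1, had 8822, 12549 and 7776 counts in control and 5195, 4277 and 4933 in *MxCDX2* mice 1 to 3. It fell by 1.02 ± 0.19 (SE; edgeR adjusted p = 0.0137). Its call was lost without control 2 (-0.79), without *MxCDX2* mouse 2 or 3, and with total counts as the only scaling (-0.90). The call was also lost with every gene of at least 1 count tested (-0.99), with glmTreat, and at an adjusted p below 0.01.

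By the adjusted p-value alone, *Runx1* (0.79) was higher and *Ssbp3* (-0.74) and *Mafk* (-0.74), partners of LDB1 and NFE2, were lower. The other E protein genes *Tcf12* (-0.04) and *Tcf4* (0.82) were not called. The 23 chromatin cofactor genes included those of LSD1, the NuRD subunits and histone deacetylases used by GFI1B, FOG1 and ETO2. Their median log2 fold change was 0.06, and *Kdm1a*, which encodes LSD1, was at 0.08. Of the 23, 1 was called, and it was higher, where 13.6% of all tested genes were called. By the adjusted p-value alone *Ctbp2* (0.94) and *Irf2bp2* (0.74) were higher and *Ctbp1* (-0.46) was lower.

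Last, the genes whose log2 normalized counts followed a GATA gene most closely over the 6 mice were ranked among the 11981 tested genes that averaged 100 or more normalized counts. For *Gata1* they were *AA986860* (Pearson r = 0.999), *Gab1* (0.997) and *Yae1d1* (0.997), and 1074 genes had an r above 0.9. For *Gata2* they were *Scin* (0.999), *Mdm1* (0.997) and *Rabgap1l* (0.997), and 404 genes had an r above 0.9. The *Gata2* trio shared its high wild-type control: *Scin* had 114, 125 and 285 normalized counts in control mice 1 to 3 and 76.3, 92.1 and 71.4 in *MxCDX2* mice 1 to 3. A high r does not require a change of like size. *AA986860*, *Gab1* and *Yae1d1* had log2 fold changes of -2.01, -1.52 and -0.38, against -3.01 for *Gata1*, and *Yae1d1* was not called (edgeR adjusted p = 0.206). The 6 points share the group difference and the library depths, and the values of r are a description of these mice.

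**Figure D5:**
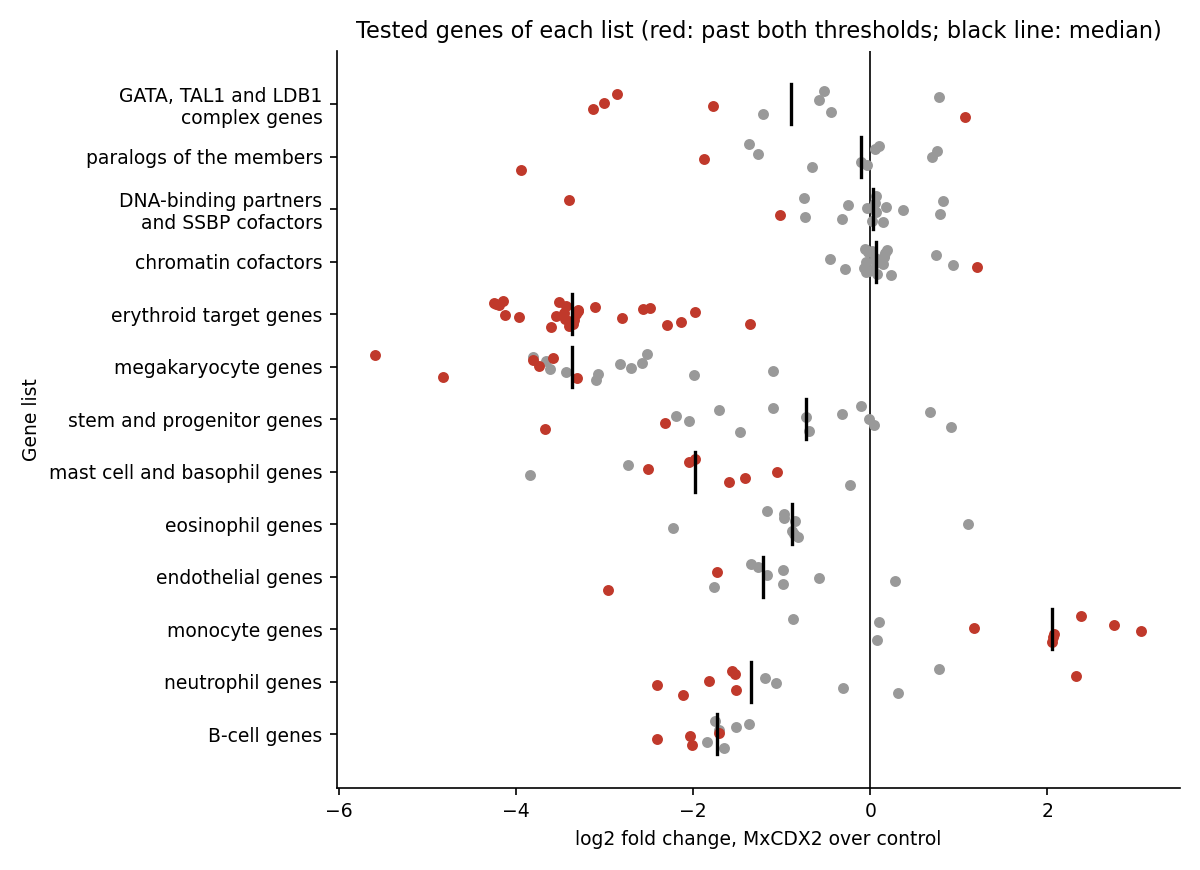
Log2 fold change, *MxCDX2* over control, of each tested gene of the 10 followed here and of the 12 lists set beside them, with genes past both thresholds in red and the list median as a black line. The erythroid genes cluster around -3.37, the monocyte genes around 2.06, and the partner and chromatin cofactor genes around 0.04 and 0.06.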

How the data were processed

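The authors deposited raw read counts per gene for each mouse, without normalization. Per the labels and methods, stranded mRNA libraries were demultiplexed with bcl2fastq 2.17.1.14, aligned to GRCm38 with STAR 2.5 and counted with HTSeq 0.6.1. Reads assigned to no feature (9.22% to 14.1% of all reads in the file) or to several (2.99% to 3.16%) were left out. Each library is labelled as a separate mouse, so the tests set the group difference against differences between mice. In edgeR the variance of each gene was also moderated across genes. Among the controls, differences between mice include those between the 3 genotypes.

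Of 39179 identifiers, 37693 were named from GENCODE M21 (GRCm38). The erythroid gene *Ahsp* had no match. Counts were tested in R 4.3.3 with edgeR 4.0.16 (TMM, filterByExpr, glmQLFit, glmQLFTest) over 15980 genes with Benjamini-Hochberg adjustment, comparing 3 *MxCDX2* with 3 control mice without covariates. Normalized counts were scaled to the mean effective library. Genes counted as changed when the log2 fold change was beyond 1 in either direction with an adjusted p below 0.05. The SE came from the quasi-likelihood F statistic. The tests were tested on simulated data. Genes with few reads, such as *Tal2* and *Runx1t1*, carry a larger counting error than the well expressed ones.

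Levels per length used merged exon lengths of GENCODE M21. Ratios and values relative to erythroid genes were tested by exact two-sided permutation (scipy 1.17.1). Promoter windows came from RefSeq (GRCm38.p6). Alternatives were DESeq2 1.42.0, DESeq2 size factors, total counts, 10 abundant genes removed, other filters, glmTreat, an adjusted p of 0.01, 1 count added to ratios, no globins in the erythroid reference, and each mouse removed in turn.

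The genes and lists were chosen with earlier results of these data known. All 10 genes, every called paralog, partner and chromatin cofactor, the genes of the ratios, the 2 largest called changes of each other list and the 3 genes most correlated with *Gata1* or *Gata2* were named. Other genes named were chosen after their values were seen. They include those passing the p-value threshold alone, those overlapping a member and the genes too low to test. *Cbfa2t2*, *Kdm1a*, *Tcf4*, *Tcf12*, *Thbs1*, *Hdc*, *Cd34*, *Etv6*, *Siglecf* and *Ccr3* were also chosen in that way. Some genes that this rule names are not reported here.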

Additional observations from a re-analysis of the deposited data

How the results depend on the processing

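The 10 genes kept their direction under every alternative. The count past both thresholds was 5 in all fits except DESeq2 (6, adding *Gata2* at -1.20, among 15.7% of 18508 genes called) and glmTreat (4, losing *Cbfa2t3* at 1.07). Removing a mouse left 5, while those with an adjusted p below 0.05 (added after seeing the data) numbered 6 to 9. With total counts only, the median of all genes shifted by 0.12, and *Nfe2* missed the p-value threshold (adjusted p = 0.0544) at a log2 fold change of -0.41. No ratio or value relative to erythroid genes reversed, but without the globin genes that of *Zfpm1* was no longer apart between the groups (0.34).

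List counts were less stable. With glmTreat 611 genes were called in all, with 1 paralog, 0 partners, 0 chromatin cofactors, 0 megakaryocyte, 0 stem cell, 0 mast cell, 0 endothelial, 2 neutrophil and 0 B-cell genes. With an adjusted p below 0.01 the total was 1043, with 1 paralog, 0 partners, 18 erythroid, 0 megakaryocyte, 0 stem cell, 1 mast cell, 0 endothelial, 3 neutrophil and 0 B-cell genes. DESeq2 called 5 stem cell, 2 eosinophil, 4 endothelial and 8 B-cell genes. Total counts gave 1 partner, 2 chromatin cofactors, 1 stem cell, 1 eosinophil and 1 endothelial gene. Every gene with at least 1 count gave 1 partner and 12 megakaryocyte genes, and at least 10 counts in every mouse gave 0 paralogs, since the low paralogs were no longer tested. Leaving out the 10 most abundant genes, some of them in that list, left 4 neutrophil genes. The causes of the other shifts were not tested.

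When 1 mouse was removed, the calls ranged from 1205 (without *MxCDX2* mouse 3) to 2406 (without the wild-type control) over all genes, 1 to 2 for paralogs, 0 to 3 for partners, 1 to 2 for chromatin cofactors, 19 to 28 for erythroid, 0 to 13 for megakaryocyte, 0 to 3 for stem cell, 2 to 4 for mast cell, 0 to 1 for eosinophil, 0 to 2 for endothelial, 5 to 7 for monocyte, 2 to 9 for neutrophil and 0 to 8 for B-cell genes.

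No paired analysis was possible because the control mice carry no replicate number in the labels, and their numbers here follow the order of the samples. With 1 mouse per control genotype, genotype and mouse cannot be told apart among the controls.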
